A study of Xiphophorus maculatus with 65 samples.

Results

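The chromosome 15 genes myo6 (gene 102231856), btbd9 (102217944) and slc35d3 (102216799) of the platyfish Xiphophorus maculatus were followed across strain, tissue, age, label year and hour. They are 3 of the 27242 gene models counted and 3 of the 946 on chromosome 15, and they were picked because earlier work on the same counts had shown them to be lower in JpB than in JpA, so their strain differences are given as descriptions, without a test. On the X_maculatus-5.0-male assembly, btbd9 spans bases 3132117 to 3141804 of chromosome 15, slc35d3 spans 4880595 to 4884260 and myo6 spans 5282208 to 5325142. All are annotated as protein coding.

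RNA-seq counts were available from males of the inbred strains JpB (Jp163B) and JpA (Jp163A), platyfish lines used as parents in crosses that give melanoma-bearing hybrids. Skin of JpB (30 libraries) came from fish of 9 to 12 months whose labels are dated in 5 different years, and skin of JpA (25 libraries) from fish of 13, 20 and 24 months whose labels carry the fourth or the fifth of these years. Liver of JpB (4 libraries) came from fish of 9 months of the fifth label year, and liver of JpA (6 libraries) from fish of 20 months of the fourth year (4) and of 13 months of the fifth (2). Names such as SHAM, 0min, 0pt and UV-0KJ mark controls that, per the labels, received no treatment, and the hours in 16 JpA skin names are times of sacrifice. No JpB fish was as old as any JpA fish, so strain and age cannot be told apart in either tissue. For 2 JpA livers the title says JpB and the strain field says Jp163A; the field was followed. Libraries of the same fish whose counts differed little beyond sampling noise (a chi-square of 2.01 to 2.78 for each degree of freedom) were summed, which left 26 JpB skin samples. Other libraries that share a fish label stayed separate, so part of the spread between samples may be within fish. Some livers and skins share a fish label as well, and the edgeR tissue tests took them as separate samples. These are JpB liver 2 with JpB skin 31, and JpB liver 4 with JpB skin 32. In JpA they are liver 1 with skin 14, liver 2 with skins 22 and 23, and liver 3 with skins 24 and 25.

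Library totals ran over 83960180 to 97639817 counts in JpB liver and 29871688 to 77377846 in JpA liver, and over 26843901 to 98104664 in JpB skin and 27235335 to 77841034 in JpA skin. The tissues matched their labels. Hepatocyte genes summed to between 29290 and 48300 CPM (counts-per-million) of the library total in liver and to between 22.7 and 120 in skin, while keratinocyte and mucous cell genes summed to 215 to 488 CPM in liver and 2269 to 8697 CPM in skin. JpA liver 2 stood apart from the other livers. It had 98.5 CPM of melanophore genes (14.6 to 50.6 in the others) and 246 CPM of fibroblast genes (25.0 to 61.9 in the others). The 20 most abundant genes took 25.5% to 40.5% of the counts in liver and 8.55% to 17.0% in skin. Levels below are CPM scaled by the trimmed mean of M-values (TMM) within a tissue unless another scale is named. Since transcript lengths were not used, levels are compared between samples of a gene and never between genes.

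The 3 genes have different known roles. MYO6 encodes myosin VI, the unconventional myosin that walks towards the minus end of actin filaments. It carries endocytic vesicles and anchors the stereocilia of hair cells, and its loss causes deafness in mouse and human and hair cell defects in zebrafish. BTBD9 encodes a BTB domain protein thought to act as an adaptor of the CUL3 ubiquitin ligase, and variants at the human gene are associated with restless legs syndrome and iron stores. SLC35D3 belongs to the family of nucleotide sugar transporters, and in the mouse its loss impairs the dense granules of platelets, which are lysosome-related organelles, as pigment granules are.

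In skin, myo6 was about 2-fold lower in JpB. It ranged over 27.8 to 78.0 CPM (median 61.2) in JpB skin and over 78.6 to 186 CPM (median 109) in JpA skin, with means of 59.1 ± 13.3 (SD, n = 26) and 116 ± 25.6 (SD, n = 25). The strains did not overlap, but only just. The highest JpB sample stood at 78.0 and the lowest JpA sample at 78.6 CPM, and on library totals alone 2 JpB samples reached the lowest JpA sample. The fitted log2 difference of JpB over JpA was -0.98 (SE 0.09).

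btbd9 was lower in JpB skin as well, with less spread than myo6 on the TMM scale. Its level was 12.0 to 20.4 CPM (median 16.4) in JpB skin and 20.5 to 37.9 CPM (median 30.5) in JpA skin, with means of 16.3 ± 1.99 (SD, n = 26) and 29.3 ± 5.24 (SD, n = 25). The spread relative to the mean was 12.2% in JpB and 17.9% in JpA, against 22.5% and 22.0% for myo6. On library totals it was 10.8% in JpB and 23.5% in JpA, against 23.6% and 22.6% for myo6, so in JpA the order turned. The fitted log2 difference was -0.85 (SE 0.07). The strains did not overlap on the TMM scale, whereas on library totals alone 13 JpB samples reached the lowest JpA sample (16.2 CPM, JpA skin 9, whose TMM factor of 0.71 was the lowest in skin).

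slc35d3 was scarce and overlapped widely. It gave 3 to 43 counts in a JpB skin sample and 5 to 44 in a JpA skin sample, or 0.0405 to 0.602 CPM (median 0.206) in JpB and 0.133 to 1.08 CPM (median 0.448) in JpA. In all, 22 of the 26 JpB samples reached the lowest JpA sample. The fitted log2 difference was -0.99 (SE 0.23). For comparison, the area under the receiver operating curve, which is 1 when every JpA sample is above every JpB sample, was 1 for myo6 and btbd9 and 0.80 for slc35d3. Every JpB sample lay below every JpA sample for 14 of 20028 genes tested (0.0699%), which include myo6, btbd9 and, on other chromosomes, mtfmt, map3k9 and arel1. Lower levels in JpB passed an adjusted p of 0.05 for 12.3% and higher levels for 13.2% of the genes tested (2458 lower and 2635 higher, and 3028 lower and 1807 higher on library totals alone). These shares use the contrast that chose the genes.

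**Figure D1:**
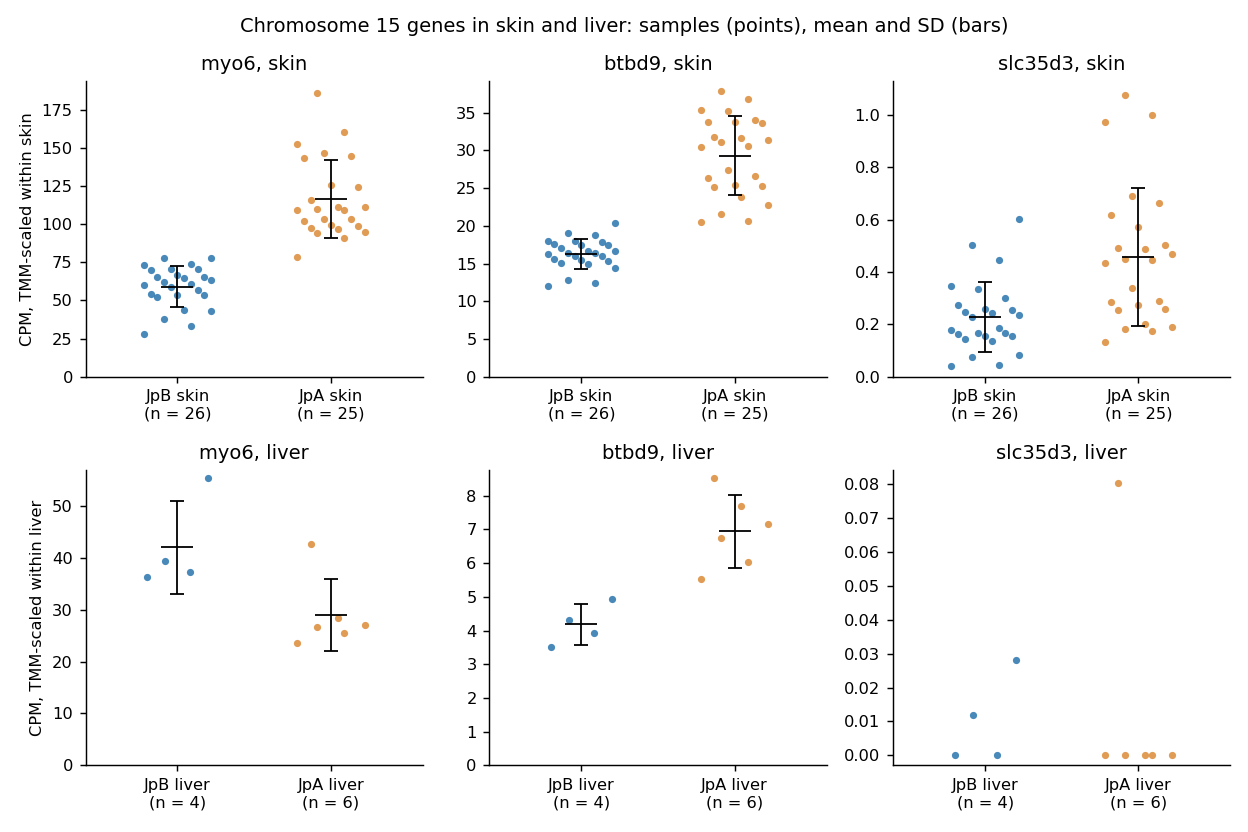
TMM-scaled CPM of myo6, btbd9 and slc35d3 (columns) in skin (upper row) and liver (lower row), JpB left of JpA; each point is 1 sample, and bars give the mean and SD where drawn (26 JpB skin, 25 JpA skin, 4 JpB liver, 6 JpA liver). In skin myo6 and btbd9 do not overlap between strains, in liver btbd9 alone does not, and slc35d3 is near 0 in liver.

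The label years shared by the strains gave the following values within a year. Among libraries of the fifth label year, myo6 was 43.0 to 53.9 CPM in JpB skin and 94.4 to 109 CPM in JpA skin (log2 difference -1.08, SE 0.12), and among those of the fourth it was 64.7 to 77.5 CPM in JpB skin and 78.6 to 186 CPM in JpA skin (-0.76, SE 0.17). For btbd9 the log2 difference was -0.79 (SE 0.13) within the fifth label year and -0.94 (SE 0.13) within the fourth label year. For slc35d3 it was smaller than over all samples, at -0.27 (SE 0.54) within the fifth label year, -0.60 (SE 0.44) within the fourth label year and -0.47 (SE 0.35) with label year as a covariate. The strains did not overlap in myo6 or btbd9 within either year, and every JpB sample lay below every JpA sample for 11.2% of all genes tested within the fifth label year and for 0.624% within the fourth, whereas slc35d3 overlapped in both (0.0832 to 0.444 CPM in JpB and 0.173 to 0.4926 CPM in JpA within the fifth label year, and 0.178 to 0.602 CPM in JpB and 0.133 to 1.08 CPM in JpA within the fourth label year). On library totals btbd9 did overlap within the fourth label year, with 15.9 to 17.9 CPM in JpB skin and 16.2 (JpA skin 9) to 39.3 CPM in JpA skin. Fish of the same year still differed in age and label date by strain. Within the fifth label year 7 of 10 cell type marker lists did not overlap either, all of them higher in JpB skin, including fibroblast genes (7306 to 16850 CPM in JpB and 1783 to 5839 CPM in JpA), osteoblast and scale genes (6415 to 17410 CPM in JpB and 925 to 4906 CPM in JpA), melanophore genes (327 to 364 CPM in JpB and 204 to 289.7 CPM in JpA) and hair cell genes (22.5 to 31.4 CPM in JpB and 13.9 to 19.6 CPM in JpA). Within the fourth label year 0 of 10 lists were apart. The part of these cell types in the within-year values was not tested. Hair cell genes also summed to 9.05 to 20.9 CPM in JpB liver and 12.6 to 31.9 CPM in JpA liver. Their sum therefore does not mark a cell type of skin alone.

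Over all skin samples, cell type marker sums overlapped between the strains for all 10 lists examined, yet their medians were not equal. Osteoblast and scale genes had a median sum of 3734 CPM in JpB skin and 1094 CPM in JpA skin, and fibroblast genes 4458 CPM in JpB skin and 2000 CPM in JpA skin. Skeletal muscle genes (511 CPM in JpB skin and 927 CPM in JpA skin) and endothelial genes (62.8 and 65.6 CPM) had the lower median in JpB. The remaining lists had the higher median in JpB. JpB skin 11 and 12 held 6137 and 5469 CPM of skeletal muscle genes, against 176 to 2198 CPM in all other skin samples. Without these 2 samples the log2 difference was -0.97 for myo6, -0.87 for btbd9 and -0.98 for slc35d3. Of the single marker genes in skin, 4 of 7 osteoblast and scale genes, 3 of 5 fibroblast genes (2 on library totals) and 3 of 6 hepatocyte genes were higher in JpB, with no lower call (edgeR), and col1a1 (2.20, edgeR adjusted p = 5.7e-05) and col1a2 (1.90, adjusted p = 0.00012) were among them. Keratinocyte and mucous cell genes gave 1 higher and 1 lower of 6 (2 lower on library totals), neuron genes 2 and 1 of 8, leukocyte genes 1 and 1 of 9, and the 3 skeletal muscle and 3 endothelial genes did not pass (edgeR adjusted p = 0.53 to 0.97). These counts are to be read beside the 13.2% of all genes tested in skin that were higher and the 12.3% that were lower in JpB. The part of cell composition in the strain differences was not tested, and in these whole tissues fewer cells of a type and less RNA per cell cannot be told apart.

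In liver, myo6 did not keep the order seen in skin. It measured 55.3, 39.3, 36.2 and 37.3 CPM in the 4 JpB livers, while the 6 JpA livers ranged over 23.5 to 42.7 CPM (median 26.8). On the TMM scale JpA liver 3, at 42.7 CPM, was the only JpA liver inside the JpB range. On library totals JpA liver 2 (48.2 CPM) and JpA liver 3 (45.6 CPM) were both inside the 30.4 to 48.8 CPM of the JpB livers. The fitted log2 difference was 0.54 (SE 0.20), towards higher in JpB, and it shrank to 0.14 (SE 0.26) on library totals alone. The liver and skin differences of myo6 thus had opposite signs, and the difference between them was not tested.

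btbd9 was lower in JpB in liver too. It measured 4.94, 3.94, 4.32 and 3.52 CPM in the 4 JpB livers and 5.54 to 8.52 CPM (median 6.95) in the 6 JpA livers, with no overlap. The log2 difference was -0.73 (SE 0.17), and -1.13 (SE 0.27) on library totals. JpB livers lay entirely below JpA livers for 6.8% of the 16818 genes tested in liver, where 4.91% were lower and 3.94% higher at an adjusted p under 0.05 (826 and 662, or 1779 and 188 on library totals). Without the 2 livers whose titles conflict, the log2 differences were 0.47 for myo6 and -0.86 for btbd9.

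slc35d3 was barely detected in liver. JpB livers gave 3 counts in all (1 in JpB liver 3 and 2 in JpB liver 4), and JpA livers gave 6, all in JpA liver 5, so 7 of 10 livers were at 0. That amounts to 0.00818 CPM of the library totals in JpB liver (exact Poisson 95% interval 0.00169 to 0.0239) and 0.0215 CPM in JpA liver (0.00788 to 0.0468), intervals that cover counting error only. A strain difference was not detectable in liver at this depth. The gene fell below the count filter, so it was not tested there.

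Between tissues the sign depended on the scale. In JpB fish of 9 months of the fifth label year, the median of all genes lay at -0.29 (log2 liver over skin) with TMM scaling and at -2.49 on library totals, and 83.4% of genes passed an adjusted p of 0.05 (7527 higher and 9700 lower in liver, or 2013 and 17447 on library totals). myo6 measured 101, 72.6, 67.0 and 68.0 CPM in the 4 livers and 20.4, 20.95, 25.3 and 24.4 CPM in the 4 skins when both tissues were scaled together. On library totals it measured 48.8, 30.4, 33.9 and 31.5 CPM in the livers and 43.1, 43.6, 54.4 and 54.7 CPM in the skins. Livers lay above all skins on the first scale and overlapped them or lay below on the second. Its log2 difference was 1.76 (SE 0.15, edgeR adjusted p = 9.3e-07), against -0.44 (adjusted p = 0.024) on library totals.

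In JpA the comparison took in 2 ages. At both ages livers and skins carry different label dates, so tissue and label date cannot be told apart there. The livers of 13 months are all sham, while the skins of that age are sham or 0min. Across 6 livers and 9 skins of 13 and 20 months, with age as a covariate, the log2 difference of myo6 was -0.04 (SE 0.15, edgeR adjusted p = 0.83) with TMM scaling and -1.78 (adjusted p = 1.9e-07) on library totals, where the median of all genes was -0.20 and -1.92. Of all genes, 70.4% passed (6072 higher and 7735 lower in liver, or 1910 and 15688 on library totals). Scaled together, myo6 ranged over 53.9 to 93.3 CPM in the JpA livers and 55.2 to 87.3 CPM in the JpA skins, and the tissues overlapped.

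btbd9 had smaller tissue differences than myo6 in JpB on the TMM scale. Scaled together, it measured 9.05, 7.26, 8.00 and 6.43 CPM in the 4 JpB livers and 5.67, 6.07, 5.84 and 6.69 CPM in the 4 JpB skins, so that 1 liver was inside the range of the skins. This was a log2 difference of 0.34 (SE 0.13, edgeR adjusted p = 0.034) that turned to -1.85 (adjusted p = 6.6e-07) on library totals. Leaving out JpB liver 1, JpB liver 3 or JpB skin 30, 31 or 32 ended the call, with adjusted p up to 0.13. In JpA the log2 difference was 0.10 (SE 0.12, adjusted p = 0.47), and -1.64 (adjusted p = 1.0e-07) on library totals.

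slc35d3 was scarcer in liver on library totals, the scale of the folds below. On that scale the median log2 difference of all genes was -2.49 in JpB and -1.92 in JpA. Pooled over libraries, JpB liver held 3 counts and JpB skin of the same year 89, a 30.3-fold lower count per total in liver (exact 95% counting interval 10.0 to 149.6 fold, and 70.1-fold, 12.3 to 2798, without JpB liver 4). JpA livers of 13 months held 6 counts and skins of that age 71, which is 6.87-fold lower in liver (3.01 to 19.4). All 6 counts came from JpA liver 5 and JpA liver 6 was at 0, and these are the livers whose titles conflict on the strain. JpA liver 5 by itself was 3.49-fold lower than the skins (1.53 to 9.83), and JpA liver 6 by itself at least 6.76-fold lower at the same floor of 3 counts that is used next. The 4 JpA livers of 20 months were all at 0, against 54 counts in the 5 skins, at least 15.4-fold lower in liver when 3 counts over the group are taken as the floor. With TMM scaling and no filter on low counts the log2 difference was -2.65 in JpB (edgeR adjusted p = 0.027) and -2.27 in JpA (adjusted p = 0.020), values that depend on how a count of 0 is fitted. With both tissues scaled together by TMM, JpA liver 5 had 0.192 CPM, inside the 0.101 to 0.301 CPM of the 13-month skins. JpB liver 4 had 0.0514 CPM on that scale, inside the 0.0395 to 0.209 CPM of the JpB skins. All other livers lay below the skins of their strain.

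Genes that work with each of the 3 had calls in both directions, to be read beside the 13.2% of all genes higher and 12.3% lower in JpB skin. Counts for liver against skin are to be read beside those over all genes. In JpB these were 7527 higher and 9700 lower of 20645, or 2013 and 17447 on library totals. In JpA they were 6072 higher and 7735 lower of 19619, or 1910 and 15688 on library totals. Of 14 myosin VI partners tested in skin, gipc3 (0.30, adjusted p = 0.046), a trafficking adaptor, was higher in JpB, while optn (-0.20, adjusted p = 0.042), the autophagy receptor optineurin, and hip1r (-0.34, adjusted p = 0.0499), which links clathrin coats to actin, were lower. On library totals gipc3 did not pass (0.25, adjusted p = 0.073), so that none was higher (edgeR) and 2 were lower. Their median log2 difference was -0.06, beside 0.02 for all genes. In liver against skin, 7 partners were higher and 5 lower in JpB and 5 higher and 3 lower in JpA with TMM scaling, but on library totals 1 was higher and 13 lower in JpB and 1 higher and 12 lower in JpA. The kinase gene lmtk2 was higher in liver on both scales (2.48 and 0.28 in JpB, 2.27 and 0.52 in JpA), and the endosomal adaptor tom1 was lower on both (-2.73 and -4.93 in JpB, -2.94 and -4.60 in JpA).

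Among 18 other unconventional myosins, 2 were higher and 1 lower in JpB skin. myo5a (0.75, adjusted p = 1.9e-06), a mover of pigment granules, was among the higher ones, and the lower one was myo1e (-0.42, adjusted p = 0.00029). On library totals 1 was higher and 1 lower. In liver against skin 4 were higher and 10 lower of 17 in JpB, and 4 higher and 7 lower of 18 in JpA, while on library totals 0 and 16 (edgeR) and 1 and 16 were. Hair cell genes gave 2 of 10 tested higher in JpB skin and none lower (edgeR), the inner ear matrix gene otog (2.03, adjusted p = 0.010) and the Usher syndrome gene ush1c (0.44, adjusted p = 0.040). On library totals ush1c did not pass (0.38, adjusted p = 0.078), which left 1 of 10.

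For btbd9, 29 CUL3 adaptors and core subunits were tested. In skin 3 were higher and 3 lower in JpB (median log2 difference 0.04), with klhl18 (-0.50, adjusted p = 0.00035) and klhl15 (-0.39, adjusted p = 0.00087) lower and spopl (0.17, adjusted p = 0.0093) higher. On library totals none was higher (edgeR) and 6 were lower, and spopl did not pass (0.13, adjusted p = 0.13). In liver against skin 14 were higher and 8 lower in JpB, against 1 and 27 on library totals.

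Of 14 genes of iron homeostasis tested in skin, 3 were higher and 4 lower in JpB (median -0.09). The lower ones included slc39a14 (-0.46, adjusted p = 0.00044), a metal importer, and ncoa4 (-0.31, adjusted p = 0.014), the receptor for ferritin breakdown, while aco1 (0.24, adjusted p = 0.0076), which senses iron, was higher. On library totals 1 was higher and 5 were lower, and aco1 did not pass (0.19, adjusted p = 0.095). In liver tfr2 and tmprss6, regulators of hepcidin, stood far above skin on both scales (10.1 and 7.89, and 11.6 and 9.44, in JpB).

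For slc35d3, 20 other nucleotide sugar transporter genes split into 3 higher and 3 lower in JpB skin (median -0.06). slc35b1 (-0.54, adjusted p = 0.0084) and slc35a2 (-0.36, adjusted p = 0.0050) were lower and slc35f5 (0.21, adjusted p = 0.0039) was higher. On library totals 2 were higher and 3 lower, and slc35f5 did not pass (0.17, adjusted p = 0.068). Of 24 genes for lysosome-related organelle biogenesis, 5 were higher and 2 lower in JpB skin (median 0.12), the lower ones including rab38 (-0.46, adjusted p = 0.00033), which delivers pigment enzymes. rab38 was also lower in JpB liver than in JpB skin on both scales (-5.29 and -7.46). The melanophore list gave 4 higher and 1 lower of 13 in JpB skin, with tyr (-0.68) lower and dct (1.16) higher.

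The 3 genes were not alone on their stretch of chromosome 15. Between 3.1 and 5.4 Mb, 122 other genes were tested in skin, of which 33 (27.0%) were lower and 12 (9.84%) higher in JpB, with a median log2 difference of -0.12. On the whole chromosome 13.5% of 719 genes were lower and 14.6% higher. The stretch was drawn around the 3 genes, so these shares are a description.

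Immediate neighbours did not share the differences throughout. Next to btbd9, LOC111611360 (0.248 kb away) was lower in JpB (-1.70, edgeR adjusted p = 4.3e-12) and LOC111611338 beyond it was higher (1.25, adjusted p = 2.6e-07), while on the other side LOC102217690 did not pass (-0.21, adjusted p = 0.12) and LOC102221850 was lower (-0.46, adjusted p = 0.0060). The peroxisomal import receptor gene pex7, 0.470 kb from slc35d3, was at 12.8 ± 1.78 CPM in JpB and 12.7 ± 2.21 CPM in JpA (SD, n = 26 and 25, log2 difference 0.01). LOC111611358 beyond pex7 was lower (-0.80, adjusted p = 0.00020), as was LOC102237389 on the far side (-0.23, adjusted p = 0.032), whereas LOC102216538 varied too much to pass (0.86, adjusted p = 0.16). Around myo6, nt5e, the gene of the surface enzyme that makes adenosine, was lower (-0.44, adjusted p = 0.0011), and LOC102231594, LOC111611434 and LOC111611349 did not pass (-0.07, -0.41 and 0.17). Whether reads were counted by strand is not given in the sources used here, so overlapping transcripts of such close neighbours could not be told apart.

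**Figure D2:**
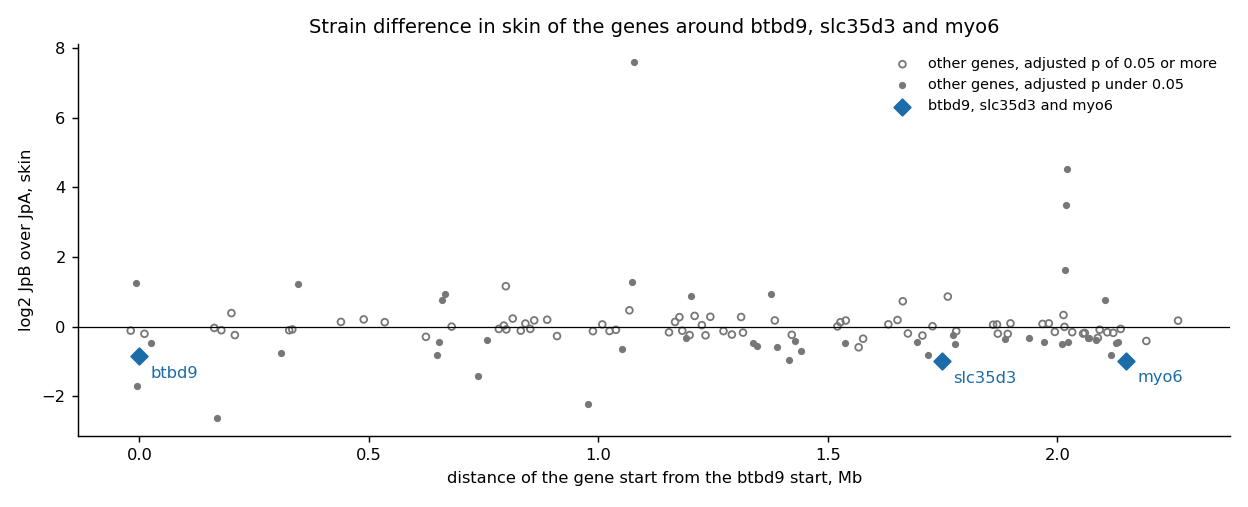
Log2 JpB over JpA in skin (vertical axis) of every tested gene of the stretch against the distance of its start from the btbd9 start in Mb (horizontal axis); diamonds are btbd9, slc35d3 and myo6, filled circles other genes with an adjusted p under 0.05, open circles the rest. Among the other genes 33 are called lower and 12 higher in JpB, scattered between genes that are not called.

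The 3 genes were set against each other within each strain. Over 26 JpB skin samples Pearson's r of log2 CPM was 0.32 for myo6 with btbd9, 0.63 for myo6 with slc35d3 and 0.0021 for btbd9 with slc35d3. Spearman's rho for myo6 with slc35d3 was 0.41, and the 12-month samples of the third label year, low in both genes, enter these values. Over 25 JpA skin samples Pearson's r was 0.30, 0.22 and 0.41 for the pairs in the same order. Samples that share a fish, a label year or an hour enter these values, which are descriptions. Over both strains together r was 0.81, 0.64 and 0.55, which includes the strain step that chose the genes.

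Of the genes with a symbol, those most like myo6 over all 51 skin samples were ints5, ncdn, map3k9, kpnb1 and rnf169 (r of 0.83 to 0.85), and those most like it in their deviations from the strain means were kpnb1, tp53bp1, sos1, fpgs and gon4l (0.78 to 0.80). For btbd9 they were arel1 (0.93), mtfmt, mtif3, map3k9 and hfm1 (down to 0.83), and by deviations acsbg2, vps54, gbf1, ap1b1 and fam126a (0.75 to 0.79). The r over all 51 samples includes the strain step that chose the 3 genes. Within the strains, r with btbd9 was 0.57 in JpB and 0.84 in JpA for arel1, and 0.25 in JpB and 0.03 in JpA for mtfmt. It was -0.12 in JpB and 0.49 in JpA for mtif3, -0.31 and 0.47 for map3k9, and 0.24 and -0.05 for hfm1. For slc35d3 they were papss1, nudt18, ints5, rpn1 and rasal2 (0.70 to 0.77), and by deviations papss1, sympk, ints8, xrn2 and pigg (0.61 to 0.66). xrn2 and mtif3 also lie on chromosome 15.

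Age was examined within strains. In JpA skin btbd9 was 32.3 ± 3.67 CPM at 24 months (SD, n = 16), 25.5 ± 1.10 CPM at 20 months (SD, n = 5) and 21.9 ± 2.18 CPM at 13 months (SD, n = 4). Among the samples of 20 months, JpA skins 22 and 23 share a fish label, as do JpA skins 24 and 25. The spread at 20 months may thus be partly within fish, and edgeR took these as separate samples. All samples of 24 months but JpA skin 9 (22.7 CPM) lay above all samples of 20 months. The share of all genes with such a layout was not counted. The log2 difference of 24 over 20 months was 0.35 (SE 0.10, edgeR adjusted p = 0.076), short of the threshold that 1.71% of 20459 genes passed. It passed under 3 of 16 alternatives (adjusted p = 0.013 to 0.16 over all of them), and each of the 3 called more genes. Without JpA skin 9 it was 0.38 (adjusted p = 0.017, 3.47% of genes called), with DESeq2 0.35 (adjusted p = 0.013, 4.89% called) and with fish as a random block in limma 0.34 (adjusted p = 0.049, 3.11% called), while on library totals it was 0.39 (adjusted p = 0.15). Both ages carry the fourth label year. All skins of 24 months share 1 label date and belong to the hour series, and all skins of 20 months share another and are Sham or 0pt controls, so age cannot be told apart from label date and experiment. Between these ages hair cell genes were the only 1 of 10 marker lists whose sums did not overlap (15.2 to 27.5 CPM at 24 months, 12.4 to 15.0 CPM at 20 months). JpA livers had 12.6 to 31.9 CPM of this list, so it is not particular to skin.

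myo6 and slc35d3 did not pass between these ages. myo6 was 120 ± 29.3 CPM at 24 months and 119 ± 19.7 CPM at 20 months (SD, n = 16 and 5, log2 difference 0.02, edgeR adjusted p = 0.98), and slc35d3 0.536 ± 0.290 CPM and 0.355 ± 0.126 CPM (0.59, SE 0.41, adjusted p = 0.51). Between 20 and 13 months the log2 differences were 0.22 for myo6, 0.20 for btbd9 and 0.32 for slc35d3 (edgeR adjusted p = 0.61, 0.44 and 0.79), where 1.28% of genes passed (40 higher and 222 lower at 20 months, or 91 and 89 on library totals). All fish of 13 months carry the fifth label year, so age and label year cannot be told apart there either.

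**Figure D3:**
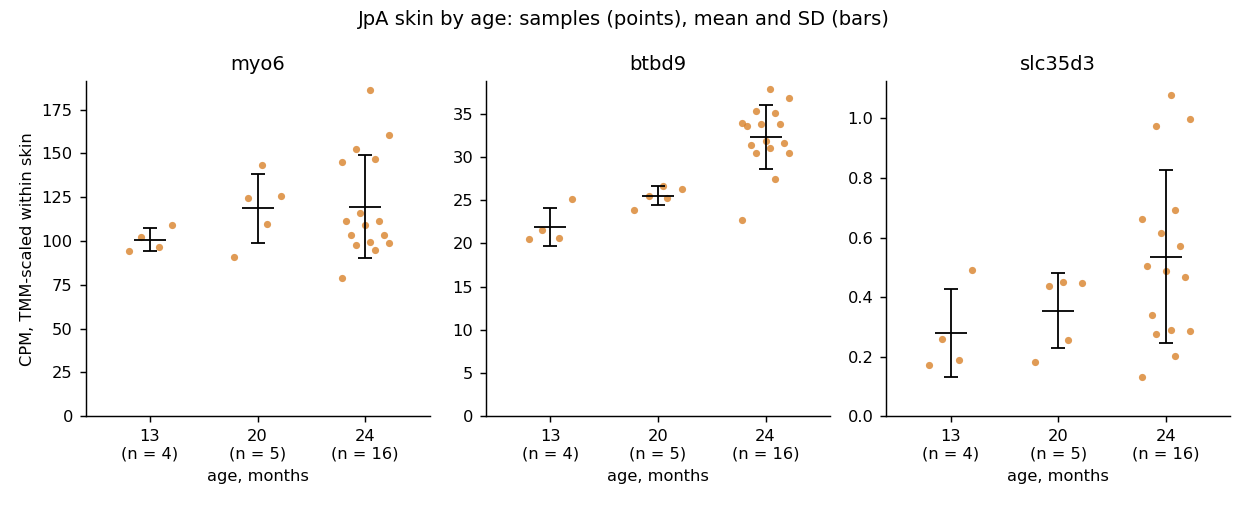
TMM-scaled CPM in JpA skin (vertical axes) by age in months (horizontal axes), with samples as points and mean and SD as bars (n = 4, 5 and 16). btbd9 is highest at 24 months except for JpA skin 9 at 22.7 CPM, while myo6 and slc35d3 overlap between ages.

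In JpB skin of the second and the third label year, fish of 12 months were set against fish of 9 to 10 months with the year as a covariate. None of the 3 genes passed. The log2 differences were -0.35 (SE 0.21) for myo6, 0.02 (SE 0.10) for btbd9 and -0.50 (SE 0.47) for slc35d3, with edgeR adjusted p of 0.34, 0.93 and 0.57, while 2.7% of 20711 genes passed (305 higher and 254 lower at 12 months, or 214 and 279 on library totals).

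Values differed by year. In the third label year the 2 samples of 12 months had 27.8 and 33.3 CPM of myo6, and the 4 samples of 9 to 10 months had 54.3 to 78.0 CPM. In the second label year the 2 samples of 12 months had 60.6 and 69.7 CPM, and the 9 younger samples 37.6 to 70.5 CPM. Both ends of that range are JpB skins 3 and 5, which share a fish label with JpB skin 4. The younger samples without this label had 53.5 (JpB skin 11) to 66.8 CPM (JpB skin 16), below 69.7 CPM. JpB skins 15 and 16 share a label too, and edgeR took all of these as separate samples. slc35d3 was laid out like myo6 in the third label year, with 5 and 3 counts (0.0453 and 0.0405 CPM) at 12 months against 0.164 to 0.243 CPM in the younger samples. Within the third label year alone the log2 difference was -1.09 (SE 0.17, edgeR adjusted p = 0.020) for myo6 and -2.15 (SE 0.50, adjusted p = 0.040) for slc35d3, in a fit that called 10.4% of 20553 genes. Within the second label year alone it was 0.14 (adjusted p = 0.80) for myo6 and 0.31 (adjusted p = 0.83) for slc35d3. The age by year interaction did not pass over all genes (myo6 -1.25, SE 0.29, edgeR adjusted p = 0.11, and slc35d3 -2.49, SE 0.81, adjusted p = 0.38, 35 genes called). btbd9 did not follow this layout, at 16.0 and 16.5 CPM against 15.5 to 18.0 CPM in the third label year. In the second label year all samples of 12 months are named CO-0min and the younger ones UV-0KJ or 0min, so age and control name cannot be told apart. In the third label year the samples of 12 months carry later label dates than all younger ones, so age and label date cannot be told apart.

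The same 2 samples also stood apart in their marker sums, with 5 of 10 lists outside the range of the younger samples of the third label year. Endothelial genes summed to 41.3 and 44.8 CPM against 54.9 to 73.8 CPM, fibroblast genes to 2325 and 2615 against 3473 to 4609 CPM, osteoblast and scale genes to 1837 and 1971 against 1983 to 3526 CPM, hair cell genes to 12.7 and 14.3 against 15.4 to 21.9 CPM, and leukocyte genes to 457 and 601 against 379 to 426 CPM. Their part in the low myo6 values was not tested, and the hair cell list, as given above, is not particular to skin. Each of the 2 was the sum of 2 near-identical libraries.

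btbd9 differed between label years, from the second to the fifth, in JpB skin. Its mean was 16.9 ± 1.36 CPM in the second label year (SD, n = 11), 16.9 ± 1.02 in the third (n = 6), 16.0 ± 0.759 in the fourth (n = 4) and 12.9 ± 1.04 in the fifth (n = 4). Within the second label year JpB skins 3, 4 and 5 share a fish label, as do JpB skins 15 and 16, so its spread is partly within fish. All 4 samples of the fifth (12.0 to 14.3 CPM) lay below all 21 samples of the other 3 years, the lowest of which had 14.9 CPM, a layout shared by 2.01% of the genes tested in skin. The F-test over years gave an edgeR adjusted p of 0.0095 with 28.6% of 21118 genes called, and log2 differences of -0.40 for the fifth over the second and -0.32 for the fifth over the fourth. Among samples of 9 months alone the adjusted p was 0.072. The samples of the fourth year were all of 11 months and 0pt, and those of the fifth all of 9 months and sham or 0min. The fourth year thus cannot be told apart from age, nor the fifth from its experiment. The number in the JpB fish labels also changes with every label year, so year and that number cannot be told apart. The letters before the date in the library names change too, except between the fourth and the fifth year. Melanophore genes (327 to 364 CPM in the fifth label year, 206 to 296 CPM in the second to the fourth) and neuron genes (56.6 to 63.4 and 22.5 to 55.9 CPM) were the marker lists that did not overlap, and their part was not tested.

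For myo6 the year means were 60.5 ± 9.19, 54.0 ± 20.0, 70.3 ± 6.39 and 48.3 ± 5.59 CPM from the second to the fifth label year (SD, n = 11, 6, 4 and 4). The F-test gave an edgeR adjusted p of 0.21. Without the 12-month samples of the third label year the edgeR adjusted p was 0.0498. That exclusion was not planned beforehand and removes the lowest myo6 values of JpB skin, which by itself narrows the spread. slc35d3 gave an adjusted p of 0.31. The lone sample of the first label year had 73.1 CPM of myo6, 20.4 CPM of btbd9 (the highest JpB value) and 0.276 CPM of slc35d3.

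**Figure D4:**
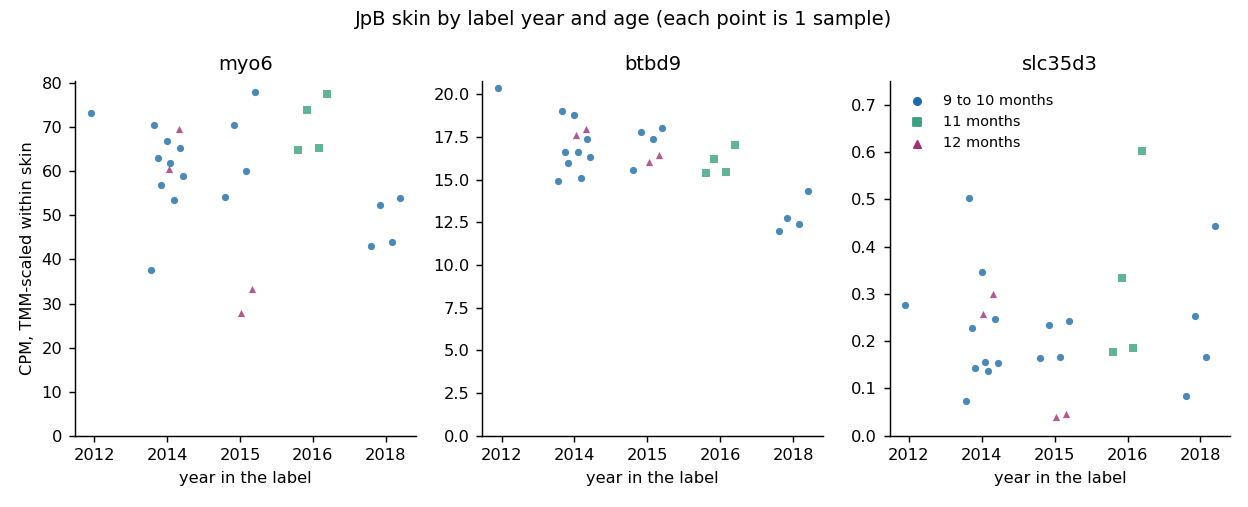
TMM-scaled CPM in JpB skin (vertical axes) by the year in the label (horizontal axes, equal steps, the first to the fifth year from left to right); each point is 1 sample, shaped by age. The 12-month samples of the third label year have the lowest myo6 (27.8 and 33.3 CPM) and slc35d3 values, and the samples of the fifth year have the lowest btbd9 values (12.0 to 14.3 CPM).

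Hour of sacrifice was recorded for 16 JpA skins of 24 months, 2 at each of 8 hours. myo6 was highest at hours 11 (161 and 186 CPM) and 14 (145 and 152 CPM), and the 12 samples of other hours had 78.6 to 147 CPM. Only JpA skin 9, at hour 17, reached into the range of hours 11 and 14 with 147 CPM on the TMM scale, and it had 104 CPM of its library total. A cosine curve of a 24 h period had its peak at 13.2 h and a peak to trough log2 difference of 0.71 (edgeR adjusted p = 0.085, where 1.99% of 20624 genes passed), short of the threshold. It passed under 2 of 13 alternatives, with DESeq2 (adjusted p = 0.010, 9.95% of genes called) and without hour 17 (edgeR adjusted p = 0.029, 16.3% called), and the adjusted p reached 0.29 without hour 11. On library totals the peak to trough difference was 0.56 (adjusted p = 0.17), and with no filter on low counts 0.70 (adjusted p = 0.10). No marker list separated hours 11 and 14 from the others.

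btbd9 did not pass as a curve of the hour. It had 36.8 and 37.9 CPM at hour 11 and 22.7 to 35.3 CPM at the others, with a peak to trough log2 difference of 0.13 (edgeR adjusted p = 0.81). slc35d3 was lowest at hour 5 (5 and 9 counts, 0.133 and 0.202 CPM), and reached up to 1.08 CPM at hour 20. Its fitted peak to trough log2 difference of 1.39 did not pass (peak at 18.2 h, edgeR adjusted p = 0.23), and the 2 samples of hour 20 had 0.285 and 1.08 CPM. With 2 samples an hour the spread within an hour is poorly known.

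**Figure D5:**
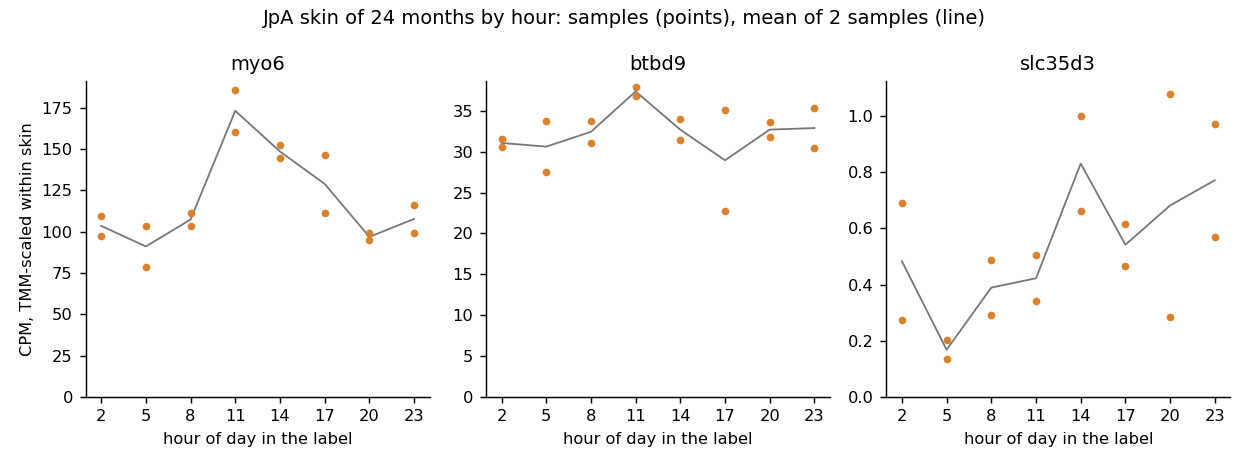
TMM-scaled CPM in JpA skin of 24 months (vertical axes) by the hour of sacrifice (horizontal axes), with samples as points and the mean of 2 samples as a line. myo6 has its highest means at hours 11 and 14 (145 to 186 CPM), with 1 sample of hour 17 at 147 CPM. Its 24 h curve did not pass (edgeR adjusted p = 0.085). btbd9 lies between 22.7 and 37.9 CPM with both samples of hour 11 highest and 1 sample of hour 17 lowest, and slc35d3 scatters between samples of an hour.

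Control names were compared within 3 sets, sham against 0min or 0pt. slc35d3 had 0.444 and 0.253 CPM in sham against 0.0832 and 0.166 CPM in 0min JpB skins of the fifth label year, 0.260 and 0.4926 CPM in sham against 0.189 and 0.173 CPM in 0min JpA skins of 13 months, and 0.436, 0.448 and 0.451 CPM in sham against 0.255 and 0.184 CPM in 0pt JpA skins of 20 months. Every sham sample was above every 0min or 0pt sample of its set, as were 4.4% of the genes tested in skin. The log2 difference was 1.21 (SE 0.28, edgeR adjusted p = 0.067), short of the threshold that 0.161% of 20450 genes passed, and the adjusted p was 0.018 with DESeq2, which called 8.91% of genes, and 0.067 to 0.32 otherwise. These are 5 to 43 counts per sample, and in the 20-month set 2 of the sham samples share a fish label with the 0pt samples.

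myo6 and btbd9 gave no call between the control names (log2 differences 0.05, SE 0.11, and 0.15, SE 0.09, edgeR adjusted p = 0.84 and 0.34). No cell type list was above or below in sham throughout the 3 sets (0 of 10 in each direction).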

How the data were processed

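Skin and liver RNA of X. maculatus JpB and JpA males was sequenced, and the authors mapped reads to genome version 5.0 with TopHat2 and counted NCBI gene models with featureCounts (versions and strand setting not given in the sources used here), depositing 1 table of raw counts for 65 libraries. All columns were mapped to a sample. Symbols and coordinates came from RefSeq (X_maculatus-5.0-male), which matched all 27242 identifiers. No sequence was used.

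Libraries of the same fish whose chi-square was under 3 for each degree of freedom (genes with 50 or more counts in a pair) were summed. Counts as deposited were tested with edgeR 4.0.16 (R 4.3.3): filterByExpr (minimum count 10), TMM, glmQLFit and glmQLFTest, Benjamini-Hochberg over all genes tested, threshold 0.05. Adjusted p-values in the text come from this test unless DESeq2 1.42.0 or limma 3.58.1 (voom, fish as random block) is named. SE is the log2 difference divided by the root of F. Likeness used log2 CPM with a prior count of 2. Scripts were tested on simulated data. Labels do not say that all samples of a group are separate fish, so p-values measure the spread between samples.

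The 3 genes and the 16 gene lists were chosen with earlier results of these counts known. Strain differences of the 3 genes therefore carry no p. Named besides them were the 2 nearest tested genes on either side, the 5 genes with a symbol of highest r by levels and by deviations, and up to 3 genes of a list by adjusted p, some of which are not reported here. Alternatives were RLE scaling, library totals, DESeq2, no filter, no summing, leaving out samples, label years, and blocks.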

Additional observations from a re-analysis of the deposited data

Results flagged for a closer look

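Levels in the sets of 4 to 10 samples were examined for a lone sample far from the rest, a rule that chance meets in about 1 of 20 sets. Among the 25 sets, JpB liver 1 had 55.3 CPM of myo6, against 36.2 to 39.3 CPM in the other JpB livers. JpA liver 3 had 42.7 CPM of myo6, against 23.5 to 28.5 CPM in the other JpA livers. Both values stand in the strain and tissue comparisons of liver, where leaving out each liver in turn gave a log2 strain difference of 0.38 to 0.68.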

How the results depend on the processing

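Strain differences of the 3 genes kept their direction under all 68 alternatives run and moved by less than the replicate spread in all but 2, both in liver on library totals alone, where myo6 was at 0.14 and btbd9 at -1.13 (log2 JpB over JpA). These alternatives reuse the contrast that chose the genes and are a description. For slc35d3 the spread was 0.75 log2 in skin, so its smaller differences within a label year, given above, did not count as moved. Of the 271 alternatives for the other comparisons, 255 kept the direction and 250 the call. The hour and label year values among them are amplitudes or spans without a sign. They could not change direction, so the count of kept directions says nothing about them. On library totals the tissue difference was -0.44 for myo6 and -1.85 for btbd9 in JpB and -1.78 and -1.64 in JpA. In JpB the call of btbd9 was lost with RLE scaling (0.30) and without the filter (0.29), and leaving out 1 library at a time gave 0.23 to 0.41. slc35d3 fell below the filter in both tissue comparisons, so its values without it (-2.65 in JpB and -2.27 in JpA) have no counterpart with it. It passed the filter in JpA only without the 2 conflicting livers (-6.58, edgeR adjusted p = 0.0011), and in JpB only with certain single libraries left out (-3.74 to -2.20, edgeR adjusted p = 0.010 to 0.064). btbd9 at 24 over 20 months passed with DESeq2 (0.35) and with the random block (0.34), at 0.32 to 0.38 with single samples left out. Within the third label year alone the age difference of JpB was -1.09 for myo6 and -2.15 for slc35d3. The span of year means was 0.39 for btbd9 at 9 months and 0.55 for myo6 without the 12-month samples of the third label year. The hour amplitude of myo6 was 0.36 with DESeq2 and 0.26 to 0.41 with samples left out, and slc35d3 in sham passed with DESeq2 (1.21).

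Counts of genes called moved as follows. Skin strain, 5093 genes, became 2666 within the fifth label year, 785 within the fourth and 2570 with label year as a covariate. Liver strain, 1488 genes, became 3195 with DESeq2 and 238 to 2129 with a liver left out. For 24 over 20 months, 350 genes became 1001 with DESeq2, 581 without the filter, 636 with the random block and 60 to 710 with a sample left out. For 20 over 13 months, 262 became 803, 440 with the random block, 58 without the 24-month fish and 82 to 466. For JpB age, 559 became 1937 with DESeq2, 3213 with no libraries summed, 2179 with the random block, 2145 within the third label year and 0 within the second (edgeR). For hour, 411 became 2052 with DESeq2, 832 without JpA skin 9 and 107 to 3356 with an hour left out. For sham, 33 became 4 with RLE, 5 on library totals, 1823 with DESeq2 and 0 to 47 with a set left out (edgeR). The causes were not tested.

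Replicate numbers shared by groups do not pair the samples by label. Same-numbered samples are of different strains in skin and in liver, and in JpA tissues they are livers of 20 months and skins of 13 months. Their deviations correlated at -0.27 to 0.36 over 18 pairs in skin, -0.20 to 0.04 over 4 in liver and -0.14 to 0.01 over 4 in JpA tissues. Of these samples, 0 correlated best with their own number. With the replicate block, 3357 genes were called in skin, 87 in liver and 10025 between JpA livers of 20 months and skins of 13 months. The skin strain differences with this block were -0.99 for myo6, -0.79 for btbd9 and -1.23 for slc35d3. JpB liver and skin share no number, though some of them share a fish label. Depth limits slc35d3 most, with 3 to 44 counts in a skin sample.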
